A study of Mus musculus with 12 samples.

Results

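Foxn2, Nab2, Tet3 and Cd320 are 4 of the 21493 genes counted in adult mouse cardiomyocytes, and are described here because the estimated swimming change of their mRNA differed between cells with and without desmin. They were chosen among the genes with the smallest p-values for the interaction, which is the swimming change in Des-/- cells minus the swimming change in Des+/+ cells on the log2 scale. No gene, these 4 included, was called for the interaction at an edgeR adjusted p under 0.05 (0 of 13158 genes tested). After swimming, Foxn2, Nab2 and Tet3 were 1.57, 2.33 and 1.44 times their non-swim level in Des+/+ cells, and 0.715, 0.912 and 0.644 times their non-swim level in Des-/- cells. Cd320 had the opposite pattern, with 0.746 times its non-swim level in Des+/+ cells and 1.68 times in Des-/- cells. Since these values chose the genes, the interaction, the swimming change within each genotype and the genotype difference within each condition are given as description, with no test.

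Desmin, encoded by Des, is the main intermediate filament protein of mature muscle, and mice without it develop a dilated cardiomyopathy. Cardiomyocytes were isolated by enzymatic perfusion with trypsin and collagenase D from the hearts of mice aged 3 months, of genotype Des+/+ or Des-/-, which had either undergone swimming as an exercise stress (swim) or not (non-swim), and poly-A RNA was sequenced. Each of the 4 groups held 3 libraries, and by the study's methods each library pooled the cells of several mice of the 129SV background taken without regard to sex, so a replicate is a pool and not an animal. The methods describe both genotypes as carrying a GFP transgene driven by the Myh6 promoter, which is active in cardiomyocytes, but the labels do not state whether the mice sequenced here carried it. Loss of desmin in these mice is not restricted to cardiomyocytes.

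The 4 proteins have different known roles. FOXN2 is a forkhead transcription factor, a family that recognises DNA through the winged helix forkhead domain. NAB2 is a corepressor that binds the zinc finger factors of the EGR family and recruits chromatin remodelling machinery to their targets, and since EGR factors also activate Nab2, it closes a negative feedback loop on genes switched on by growth factor, mechanical and stress signals. TET3 is a dioxygenase that oxidises 5-methylcytosine in DNA, the first step of active demethylation, with 2-oxoglutarate and iron as cofactors. CD320 is the cell surface receptor for transcobalamin bound to vitamin B12 (cobalamin), which cells need for methionine synthase in the cytosol and for methylmalonyl-CoA mutase in mitochondria.

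On the GRCm38 build with GENCODE M21 annotation, Foxn2 (ENSMUSG00000034998) lies on the plus strand at chr17:88440711-88490533, Nab2 (ENSMUSG00000025402) on the minus strand at chr10:127660918-127668568, Tet3 (ENSMUSG00000034832) on the minus strand at chr6:83362373-83459084 and Cd320 (ENSMUSG00000002308) on the plus strand at chr17:33843091-33849774. RefSeq's table of promoters held Nab2, Tet3 and Cd320, and the 300 bases from 250 upstream to 50 downstream of the RefSeq start are shown, 5′ to 3′ on the strand of the gene, because the genes were chosen for a shared dependence on genotype and swimming, and the windows show which known promoter elements they hold. Capitals mark matches, on either strand, to GGGCGG (the GC box) or CCAAT (the CCAAT box).

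Nab2: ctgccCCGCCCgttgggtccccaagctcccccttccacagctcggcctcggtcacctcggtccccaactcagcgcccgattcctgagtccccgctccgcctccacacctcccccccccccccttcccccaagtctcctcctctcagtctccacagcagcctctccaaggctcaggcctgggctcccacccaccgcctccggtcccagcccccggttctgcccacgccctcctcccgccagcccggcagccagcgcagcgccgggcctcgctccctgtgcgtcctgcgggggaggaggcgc
Tet3: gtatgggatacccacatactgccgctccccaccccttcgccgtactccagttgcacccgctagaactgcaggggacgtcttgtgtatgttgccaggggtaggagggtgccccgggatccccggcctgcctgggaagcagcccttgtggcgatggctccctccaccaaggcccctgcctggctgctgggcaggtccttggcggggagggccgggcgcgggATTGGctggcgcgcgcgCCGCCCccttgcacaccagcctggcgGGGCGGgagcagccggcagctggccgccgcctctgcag
Cd320: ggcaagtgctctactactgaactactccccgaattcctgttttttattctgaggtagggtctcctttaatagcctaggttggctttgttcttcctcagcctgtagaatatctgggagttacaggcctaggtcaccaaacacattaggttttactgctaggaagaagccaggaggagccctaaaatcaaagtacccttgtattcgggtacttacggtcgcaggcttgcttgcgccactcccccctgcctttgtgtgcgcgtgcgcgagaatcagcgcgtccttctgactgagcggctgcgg

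The Nab2 window (GRCm38, chr10:127666654-127666953, minus strand) held 22 CpG sites at 74% GC and 1 GC box. The Tet3 window (GRCm38, chr6:83441629-83441928, minus strand) held 22 CpG sites at 71.3% GC, with 2 GC boxes and 1 CCAAT box. The Cd320 window (GRCm38, chr17:33842841-33843140, plus strand) was poorer, with 13 CpG sites at 51.7% GC and neither box. Across the 32851 promoters of the table the median was 7 CpG sites, and 76.9% of promoters had fewer than the Nab2 and Tet3 windows and 62.1% fewer than the Cd320 window. GC boxes occurred in 35.7% of all promoters and CCAAT in 37.4%. The EGR motif in either of its forms GCGTGGGCG and GCGGGGGCG occurred in 3.47% of promoters, the ETS motif CCGGAAG in 8.86%, the CRE TGACGTCA in 1.79% and the E-box CACGTG in 7.15%, and none of these letters was in the 3 windows. The RefSeq start coincided with the GENCODE gene start for Cd320, but lay 1865 bp inside the GENCODE gene for Nab2 and 17406 bp inside it for Tet3, so for these 2 genes the window is that of 1 of several annotated starts.

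Reads assigned to genes ranged from 4320819 to 12072443 per library and were fewest in the Des-/- swim group (4320819 to 6521963). Levels are given in CPM, a count relative to the TMM-scaled total of its library, on the usual CPM scale. A floor of 3 counts corresponded to between 0.248 and 0.694 on that scale when totals were taken without TMM scaling. This limit covers counting error only. Uniquely aligned reads that the counting assigned to no gene made up 36.4 ± 2.71% (SD, n = 3) of the Des+/+ non-swim libraries. The share was 47.8 ± 2.31% in Des+/+ swim, 45.2 ± 9.67% in Des-/- non-swim and 60.0 ± 3.95% in Des-/- swim. It is not the share of reads lying between genes, since reads on the strand not counted would also enter it. Des itself was at 973 CPM or more in every Des+/+ library and at 101 CPM or less in every Des-/- library, as the genotype labels say. Replicate 3 of the Des-/- non-swim group stood apart, with summed fibroblast markers of 40595 CPM against 9526 and 8570 CPM in its fellow libraries, and so did replicate 3 of the Des-/- swim group, with 14144 CPM against 4742 and 4130 CPM. The values of the 4 genes are therefore also given without these libraries.

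All 4 genes passed the filter on low counts that left 13158 genes for testing, with 115 to 389 reads per library for Foxn2, 233 to 653 for Nab2, 192 to 773 for Tet3 and 77 to 242 for Cd320. Per kilobase of exon, Nab2 was the most abundant at a mean of 16.9 CPM per kb over the 12 libraries, followed by Cd320 at 5.89, Foxn2 at 4.32 and Tet3 at 3.27 CPM per kb.

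**Figure D1:**
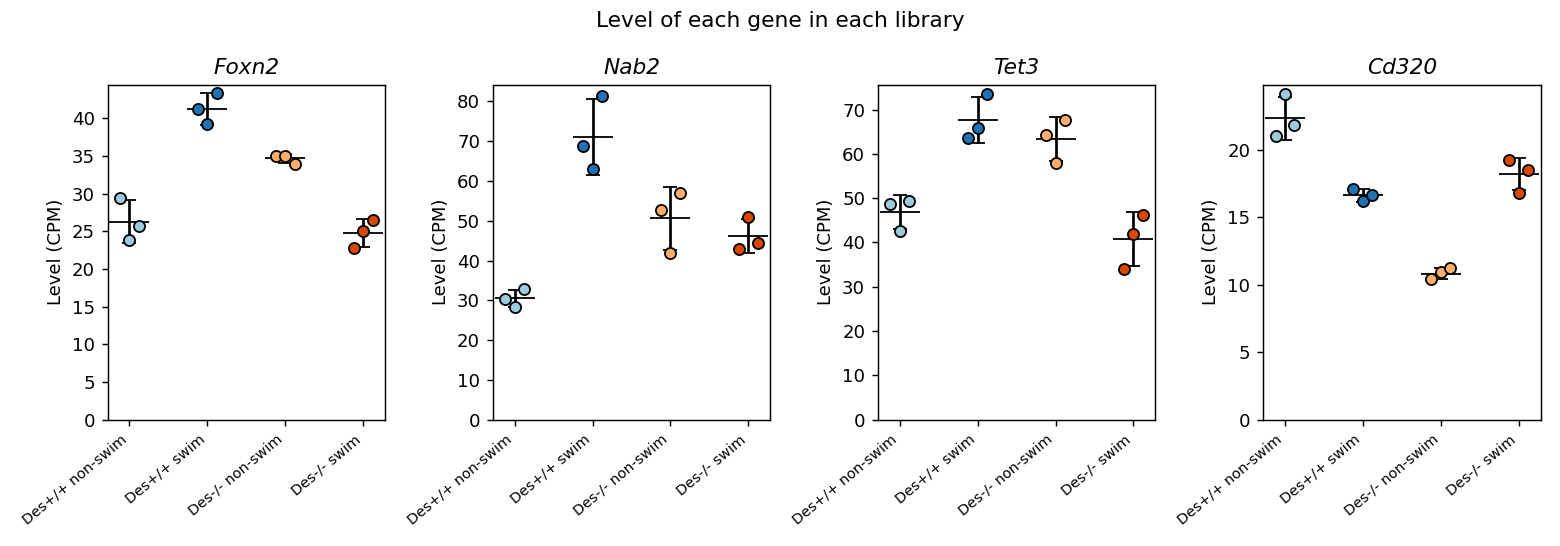
Level of each gene in CPM (linear axis from 0) in each of the 12 libraries, by group. Points are libraries, the horizontal line is the group mean and the bars are ± 1 SD (n = 3). By group mean, Foxn2, Nab2 and Tet3 were highest in Des+/+ swim libraries, where those of Tet3 overlapped with Des-/- non-swim libraries. Cd320 was highest in Des+/+ non-swim and lowest in Des-/- non-swim libraries.

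Foxn2, the forkhead factor, was at 29.5, 23.8 and 25.7 CPM in the Des+/+ non-swim libraries (replicates 1, 2 and 3) and at 41.2, 39.2 and 43.4 CPM in the Des+/+ swim libraries. In Des-/- cells it was at 35.0, 35.0 and 34.0 CPM without swimming and at 22.8, 25.1 and 26.5 CPM after it. Within each genotype the swim and non-swim libraries did not overlap, and the order reversed. From highest to lowest the group means were 41.3 ± 2.12 CPM in Des+/+ swim, 34.7 ± 0.553 in Des-/- non-swim, 26.3 ± 2.86 in Des+/+ non-swim and 24.8 ± 1.89 in Des-/- swim (SD, n = 3). The last 2 groups overlapped. On the log2 scale the swimming change was 0.65 (SE 0.12) in Des+/+ and -0.48 (SE 0.12) in Des-/- cells, which makes an interaction of -1.13 (SE 0.17).

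Nab2, the EGR corepressor, had the largest swimming change of the 4 genes in Des+/+ cells. Without swimming the Des+/+ libraries held 30.3, 28.4 and 32.8 CPM, and after swimming 68.9, 63.0 and 81.5 CPM. The Des-/- libraries held 52.7, 41.9 and 57.1 CPM without swimming and 42.9, 51.0 and 44.5 CPM after it, so these 2 groups overlapped. The group means were 71.1 ± 9.47 CPM in Des+/+ swim, 50.6 ± 7.83 in Des-/- non-swim, 46.1 ± 4.25 in Des-/- swim and 30.5 ± 2.18 in Des+/+ non-swim (SD, n = 3). Both Des-/- groups thus lay between the Des+/+ groups, with no library of either beyond them. The log2 swimming change was 1.22 (SE 0.15) in Des+/+ and -0.14 (SE 0.15) in Des-/- cells, an interaction of -1.36 (SE 0.21).

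Tet3, the methylcytosine dioxygenase, followed the pattern of Foxn2. It was at 48.8, 42.5 and 49.4 CPM in Des+/+ non-swim and at 63.7, 65.8 and 73.6 CPM in Des+/+ swim libraries. In Des-/- cells it was at 64.3, 57.9 and 67.6 CPM without swimming and at 34.1, 42.0 and 46.2 CPM after swimming. Again swim and non-swim libraries did not overlap within either genotype. The group means were 67.7 ± 5.22 CPM in Des+/+ swim, 63.3 ± 4.96 in Des-/- non-swim, 46.9 ± 3.81 in Des+/+ non-swim and 40.8 ± 6.12 in Des-/- swim (SD, n = 3), with overlap between the upper 2 groups and between the lower 2. The log2 swimming change was 0.53 (SE 0.13) in Des+/+ and -0.64 (SE 0.14) in Des-/- cells, an interaction of -1.16 (SE 0.19).

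Cd320, the receptor for cobalamin on its carrier, was at 21.0, 24.1 and 21.8 CPM in Des+/+ non-swim libraries and at 17.1, 16.2 and 16.6 CPM in Des+/+ swim libraries. The Des-/- non-swim libraries held 10.4, 10.9 and 11.2 CPM and the Des-/- swim libraries 19.2, 16.8 and 18.5 CPM. Every Des-/- non-swim library lay below every other library, while the 2 swim groups overlapped. The group means were 22.3 ± 1.60 CPM in Des+/+ non-swim, 18.2 ± 1.21 in Des-/- swim, 16.6 ± 0.484 in Des+/+ swim and 10.8 ± 0.391 in Des-/- non-swim (SD, n = 3). The log2 swimming change was -0.42 (SE 0.13) in Des+/+ and 0.75 (SE 0.14) in Des-/- cells, an interaction of 1.17 (SE 0.19). Foxn2, Tet3 and Cd320, 3 of the 4 genes, thus had swim and non-swim libraries that did not overlap in either genotype and lay in opposite orders, as did 267 of the 13158 genes tested (2.03%). Nothing is read from this count, since the swimming changes chose the genes.

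**Figure D2:**
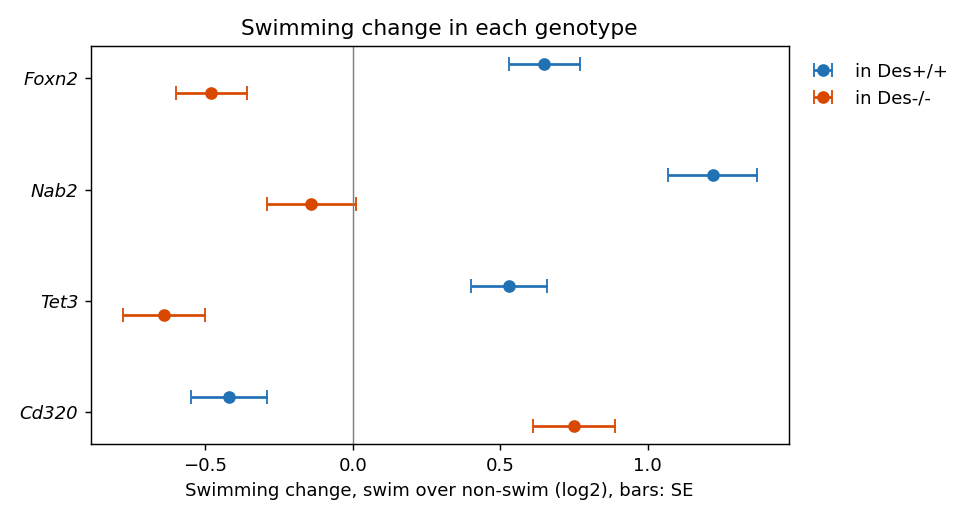
Swimming change of each gene (log2 of swim over non-swim, from the edgeR fit) in Des+/+ and Des-/- cells. Points are estimates from 3 against 3 libraries and bars are ± 1 SE. Foxn2, Nab2 and Tet3 lie right of 0 in Des+/+ and left of it in Des-/- cells, with the bar of Nab2 in Des-/- cells (-0.14, SE 0.15) crossing 0, and Cd320 lies the other way.

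Read as genotype differences, the same values gave Des-/- over Des+/+ ratios without swimming of 1.32 for Foxn2, 1.66 for Nab2, 1.35 for Tet3 and 0.486 for Cd320. After swimming the ratios were 0.601, 0.648, 0.602 and 1.09, respectively. On the log2 scale the genotype difference without swimming was 0.40 (SE 0.12) for Foxn2, 0.73 (SE 0.15) for Nab2, 0.43 (SE 0.13) for Tet3 and -1.04 (SE 0.14) for Cd320, and after swimming it was -0.73 (SE 0.12), -0.63 (SE 0.15), -0.73 (SE 0.14) and 0.13 (SE 0.14). The 3 nuclear regulators were thus higher in Des-/- cells at rest and lower in them after swimming. Cd320 was lower in Des-/- cells at rest, and after swimming its libraries overlapped between the genotypes.

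The interaction was not called for any gene by edgeR's quasi-likelihood test (adjusted p under 0.05, 0 of 13158 genes, 0.00%), while 2148 genes (16.3%) had an unadjusted p under 0.05, 1332 of them with a positive interaction (10.1%) and 816 with a negative one (6.20%). DESeq2 called 328 of the 8537 genes to which it gave an adjusted p (3.84%). The unadjusted p-values that placed the 4 genes among the candidates were 3.14e-05 for Foxn2, 3.57e-05 for Nab2, 6.27e-05 for Tet3 and 6.6e-05 for Cd320, at ranks 1, 2, 4 and 5, all with an edgeR adjusted p of 0.174. Rank 3 belonged to Slc25a24, a mitochondrial carrier of adenine nucleotides and phosphate, with an interaction of -1.27 and an unadjusted edgeR p of 5.46e-05, and it is not among the genes described here. Just outside lay Amy1 at rank 6 with an interaction of 2.32, Coq3 at rank 7 with 1.49 and Myl7 at rank 8 with 5.10. Their unadjusted p-values were 0.000105, 0.000121 and 0.00013, each with an edgeR adjusted p of 0.199.

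By size alone the 4 interactions were not extreme. Among the 13158 genes tested, the absolute interaction of Nab2 ranked 895, that of Cd320 1272, that of Tet3 1282 and that of Foxn2 1365, so that each lay within the top 6.8% to 10.4%. The libraries of a group were close to each other for these genes, with a residual SD on the log2 scale of 0.10 for Foxn2, 0.17 for Nab2, 0.15 for Tet3 and 0.08 for Cd320 against a median of 0.28 over all genes. Of the 500 genes closest in level, 0% had a lower dispersion estimate than Cd320, 2.6% a lower one than Foxn2, 21.8% a lower one than Tet3 and 31.6% a lower one than Nab2. The p-values that ranked them thus rest on a small error as well as on the size of the interaction, and this small error entered the choice of the genes.

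**Figure D3:**
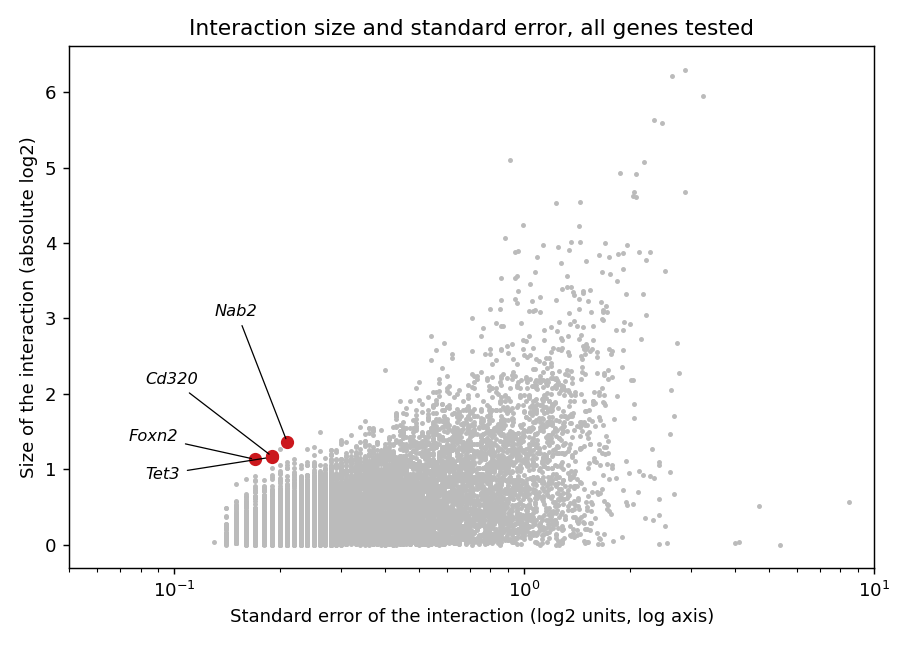
Absolute interaction (log2) against its standard error (log axis, in log2 units rounded to 2 decimals) for the genes tested by edgeR, with 2 genes beyond an SE of 10 not drawn. Grey points are genes and the labelled points are Foxn2, Nab2, Tet3 and Cd320. The 4 genes lie at the left edge, with SEs of 0.17 to 0.21, and many genes with larger interactions have larger errors.

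Averages over the other factor were not used to choose the genes and were tested. The average swimming effect, the mean of the log2 changes in the 2 genotypes, was called for 109 of 13158 genes (0.828%), 81 of them higher after swimming (0.616%) and 28 lower (0.213%). An unadjusted edgeR p under 0.05 was found for 2580 genes. Nab2 was the 1 gene of the 4 that was called, with an average rise of 0.54 (SE 0.10, edgeR adjusted p = 0.0400), made up of 1.22 in Des+/+ and -0.14 in Des-/- cells. This call did not hold when a library was left out in 10 of 12 cases (edgeR adjusted p between 0.0394 and 0.102 over the 12 fits, log2 between 0.48 and 0.60), and it held without replicate 3 of either Des-/- group and without both of them. The averages of Foxn2 (0.08, SE 0.09, edgeR adjusted p = 0.626), Tet3 (-0.05, SE 0.09, edgeR adjusted p = 0.791) and Cd320 (0.16, SE 0.10, edgeR adjusted p = 0.369) were not called.

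The average genotype effect, Des-/- over Des+/+ over both conditions, was called for 5250 genes (39.9%), 2539 of them higher in Des-/- cells (19.3%) and 2711 lower (20.6%). Cd320 fell by 0.46 on the log2 scale (SE 0.10, edgeR adjusted p = 0.0038), made up of -1.04 without swimming and 0.13 after it. The call was kept in all 12 fits that left out a library (edgeR adjusted p of at most 0.0106). The averages of Foxn2 (-0.17, SE 0.09, edgeR adjusted p = 0.135), Nab2 (0.05, SE 0.10, edgeR adjusted p = 0.712) and Tet3 (-0.15, SE 0.09, edgeR adjusted p = 0.228) were not called. With DESeq2 the same 2 calls were made, for Nab2 with swimming (log2 0.56, adjusted p = 0.000444) and for Cd320 with genotype (log2 -0.44, adjusted p = 0.000597). The estimates of these averages are independent of the interaction, but they share with it the estimate of spread, which the choice favoured, so their p-values may be too small.

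The samples were labelled as cardiomyocytes, and the markers of that cell type moved with the groups. The sum of 10 cardiomyocyte markers was 56979 to 89549 CPM in Des+/+ non-swim, 29376 to 50066 in Des+/+ swim, 6104 to 26869 in Des-/- non-swim and 15833 to 26601 in Des-/- swim libraries. All 10 markers were lower in Des-/- than in Des+/+ cells in both conditions, lower after swimming in Des+/+ and higher after swimming in Des-/- cells. Cd320 had the same order of swimming changes as this list, and Foxn2 and Tet3 the opposite one. Nab2 had the opposite order in Des+/+ cells, while in Des-/- cells its libraries overlapped (-0.14, SE 0.15). In bulk RNA, fewer cells of a type and less RNA per cell cannot be told apart.

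Markers of other cells also differed between the groups. The sum of 10 fibroblast markers was 3337 to 3920 CPM in Des+/+ non-swim, 2364 to 3454 in Des+/+ swim, 8570 to 40595 in Des-/- non-swim and 4130 to 14144 in Des-/- swim libraries, with 10 of 10 lower after swimming in Des-/- and 4 of 10 higher after it in Des+/+ cells. The sum of 10 macrophage markers was 225 to 342 and 255 to 323 CPM in the Des+/+ groups without and with swimming, and 419 to 4273 and 229 to 1379 CPM in the Des-/- groups. Erythrocyte markers summed to 180 to 547 CPM in Des+/+ non-swim, 1394 to 2180 in Des+/+ swim, 1471 to 4586 in Des-/- non-swim and 491 to 2921 in Des-/- swim libraries, the same order of swimming changes as Foxn2 and Tet3. Endothelial markers summed to 5327 to 6428 CPM in Des+/+ non-swim, 6249 to 9485 in Des+/+ swim, 4433 to 6881 in Des-/- non-swim and 5957 to 7797 in Des-/- swim libraries, with 7 of 8 higher after swimming in Des+/+ and 8 of 8 in Des-/- cells. That is the direction of the average swimming effect of Nab2, but not of its change in Des-/- cells (-0.14, SE 0.15). Neutrophil markers summed to 1.89 to 4.13, 1.57 to 12.8, 4.42 to 60.4 and 4.37 to 9.67 CPM in the same order of groups, with Ly6g at 0 in all groups. By group means, 5 of 7 were higher after swimming in Des+/+ and 1 of 7 in Des-/- cells. The sums of swim and non-swim libraries overlapped in both genotypes. The sum of 60.4 CPM was that of Des-/- non-swim replicate 3, against 6.7 and 4.42 CPM in its fellow libraries. Mural markers ranged from 2548 to 5690 CPM over all libraries. Lymphocyte markers were at 3.97 CPM or less in Des+/+ libraries, 9.18 to 12.2 in Des-/- non-swim and 3.39 to 9.67 in Des-/- swim libraries. The part of these cells in the results was not tested.

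Early response genes of cell isolation, of which several also stand in the EGR list described further on, summed to 1493 to 2500 CPM in Des+/+ non-swim, 2041 to 2244 in Des+/+ swim, 4579 to 9173 in Des-/- non-swim and 3817 to 6903 in Des-/- swim libraries. Their part in the level of Nab2, a target of EGR factors, was not tested. Of the libraries that stood apart in fibroblast and macrophage markers, replicate 3 of the Des-/- non-swim group was the lowest of its group for Foxn2 (34.0 against 35.0 and 35.0 CPM) and the highest for Nab2 (57.1 against 52.7 and 41.9 CPM), Tet3 (67.6 against 64.3 and 57.9 CPM) and Cd320 (11.2 against 10.4 and 10.9 CPM). Without it the interactions were -1.15 for Foxn2, -1.27 for Nab2, -1.12 for Tet3 and 1.19 for Cd320. Without replicate 3 of the Des-/- swim group they were -1.18, -1.33, -1.26 and 1.16 in the same order of genes. With both left out, which was chosen after seeing the data, they were -1.26, -1.29, -1.27 and 1.12.

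**Figure D4:**
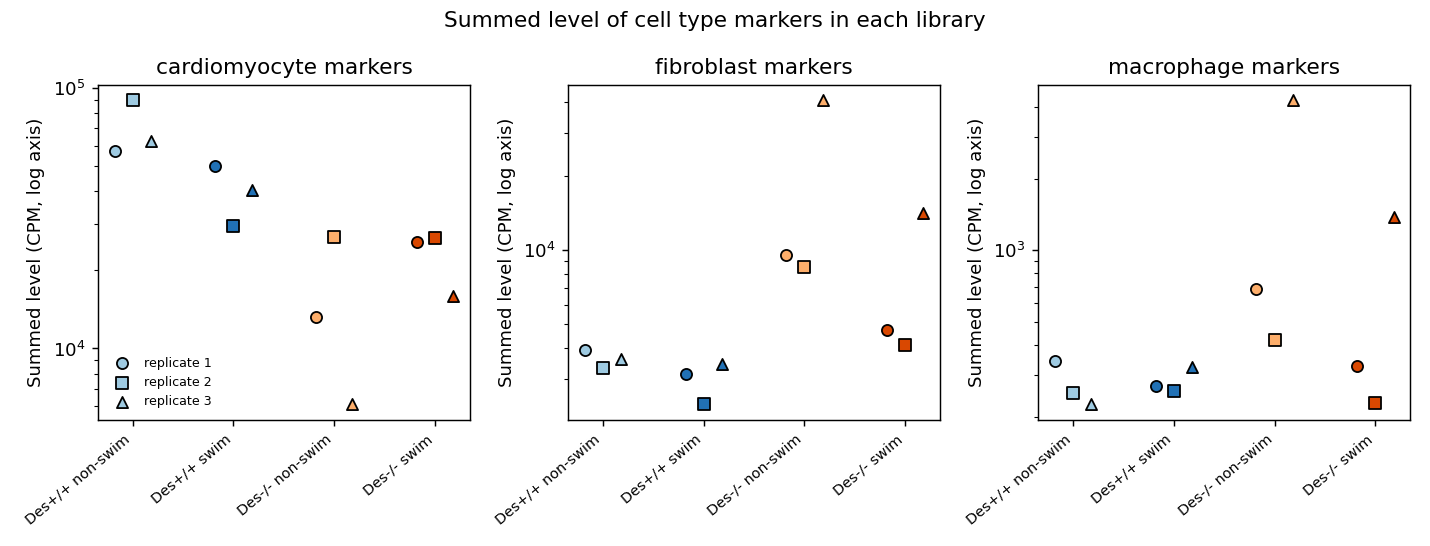
Summed CPM (log axis) of the cardiomyocyte, fibroblast and macrophage marker lists in each of the 12 libraries, by group. The symbol gives the replicate number. Cardiomyocyte markers were higher in both Des+/+ groups than in the Des-/- groups (29376 CPM or more against 26869 or less), and replicate 3 of Des-/- non-swim was highest in fibroblast (40595 CPM) and macrophage (4273 CPM) markers.

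Among themselves, Foxn2 and Tet3 were most alike, with a Pearson correlation of log2 CPM of 0.938 over the 12 libraries. Nab2 correlated with Foxn2 at 0.763 and with Tet3 at 0.668, and Cd320 with the other three at -0.531, -0.479 and -0.584. The 12 points fall into 4 groups that share genotype, swimming, depth and cell makeup, and the genes were chosen on those groups, so these values are a description only. Over all genes with mean counts of 20 or more, the 3 most like Foxn2 were Tet3 (0.938), Ski (0.910) and Nhsl2 (0.903). For Tet3 they were Cmtm6 (0.947), Foxn2 (0.938) and Ski (0.917), for Nab2 Asap1 (0.949), Rhbdf2 (0.929) and Rab5c (0.927), and for Cd320 Bag1 (0.952), Mrps18a (0.949) and Nrd1 (0.941). Ski encodes a corepressor of TGF-beta signalling and Mrps18a a protein of the mitochondrial ribosome.

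The closest relatives of the 4 genes were compared with them. Foxn3, a forkhead factor of the same subfamily as Foxn2, was at 96.7, 101, 81.8 and 121 CPM in Des+/+ non-swim, Des+/+ swim, Des-/- non-swim and Des-/- swim cells, and its interaction of 0.50 (SE 0.27, edgeR adjusted p = 0.364) had the opposite sign. Nab1, the other NAB corepressor, was at 95.8, 125, 121 and 120 CPM in the same order of groups, with an interaction of -0.40 (SE 0.18, edgeR adjusted p = 0.297). Tet1 was near the low end of the genes tested at 6.60, 3.12, 6.52 and 4.54 CPM, with an interaction of 0.56 (SE 0.67, edgeR adjusted p = 0.687). Tet2, at 28.5, 34.8, 38.8 and 42.8 CPM, had an interaction of -0.14 (SE 0.22, edgeR adjusted p = 0.761), and it was the 1 paralog called on average, higher in Des-/- cells by 0.37 (SE 0.11, edgeR adjusted p = 0.0187). The differences between each gene and its paralog were not tested.

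Of 26 other forkhead factors, 18 had counts enough to be tested. On average over swimming, 5 were called higher in Des-/- cells (against 19.3% of all genes) and 5 lower (against 20.6%), with a median of -0.04 against 0.03 over all genes. Those higher included Foxp2 (2.33, SE 0.30, edgeR adjusted p = 0.000324), Foxc1 (0.55, SE 0.12, edgeR adjusted p = 0.0041), which is known from the development of vessels and heart, and Foxp4 (0.67, SE 0.14, edgeR adjusted p = 0.00412). Those lower included Foxj3 (-0.35, SE 0.08, edgeR adjusted p = 0.00609), Foxo3 (-0.61, SE 0.16, edgeR adjusted p = 0.0102), a factor held back by insulin signalling, and Foxj2 (-0.39, SE 0.12, edgeR adjusted p = 0.02). None was called for the average swimming effect by edgeR, or for the interaction by edgeR or DESeq2. For the swimming effect 4 had an unadjusted edgeR p under 0.05, all higher after swimming. Of all 13158 genes tested, 2580 were under this threshold in either direction. The smallest interaction p-values were those of Foxd2 (-1.67, edgeR adjusted p = 0.199), Foxk1 (-0.56) and Foxm1 (-2.16), of which Foxm1 is known from dividing cells. Foxd2 was low, at 1.56, 4.35, 1.6 and 1.42 CPM in Des+/+ non-swim, Des+/+ swim, Des-/- non-swim and Des-/- swim cells. Foxm1 was uneven between the Des-/- non-swim libraries (mean 19.3 CPM, SD 12.2). The median interaction was -0.09 against 0.03 over all genes.

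The circuit around Nab2 was described by 27 genes of the EGR family, their upstream kinases and SRF partners, and early response genes, of which 26 were tested. For the average genotype effect 14 were called higher in Des-/- cells and 2 lower, against 19.3% and 20.6% of all genes, with a median of 0.71 against 0.03. The 12 markers of the response to cell isolation, some of which are in this list, moved with it: 12 were higher in Des-/- than in Des+/+ cells without swimming and 10 after it, and their part in the result was not tested. Ier2 (1.51, SE 0.17, edgeR adjusted p = 0.000202), Junb (1.76, SE 0.22, edgeR adjusted p = 0.000271) and Egr1 (1.61, SE 0.25, edgeR adjusted p = 0.000695) rose, all early response genes, and Egr1 was at 324, 266, 1055 and 759 CPM in Des+/+ non-swim, Des+/+ swim, Des-/- non-swim and Des-/- swim cells. Srf (-0.67, SE 0.10, edgeR adjusted p = 0.000567), which encodes the factor that drives many early response and sarcomere genes, fell. Nab2 itself was not called for this effect.

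None of the EGR and NAB list was called for the average swimming effect or the interaction. For the swimming effect 1 gene was higher and 3 were lower at an unadjusted edgeR p under 0.05. Over all 13158 genes tested, 2580 were under this threshold in either direction. At an unadjusted edgeR p under 0.05 the interaction was negative for 4 genes and positive for 0, against 6.20% and 10.1% of all genes. The median interaction was -0.42 against 0.03 over all genes. The smallest p-values were those of the orphan nuclear receptor Nr4a3 (-3.56, SE 1.32, edgeR adjusted p = 0.239), the remodeller Chd3 (-0.53) and Nab1 (-0.40). Nr4a3 was uneven between the Des-/- non-swim libraries (mean 41.5 CPM, SD 55.5). In Des+/+ cells Egr1 had means of 324 CPM (SD 74.6) without and 266 CPM (SD 104) with swimming, against 30.5 and 71.1 CPM for Nab2. Egr2 and Egr3 were added to those named after their values were seen. Their interactions were -0.89 (SE 1.17, edgeR adjusted p = 0.72) and -2.18 (SE 0.98, edgeR adjusted p = 0.301). Egr3 had means of 5.29 and 9.53 CPM (SD 1.59 and 9.17) in Des+/+ cells without and with swimming. In Des-/- cells its means were 28.8 and 11.5 CPM (SD 25.2 and 2.01).

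Of 32 other genes of DNA methylation and demethylation, 31 were tested. In Des-/- cells 7 were called higher and 4 lower on average, a share near that of all genes (19.3% higher and 20.6% lower), with a median of 0.06 against 0.03 over all genes. The DNA repair scaffold Xrcc1 (0.45, SE 0.10, edgeR adjusted p = 0.0049), the stress-induced Gadd45b (1.64, SE 0.44, edgeR adjusted p = 0.0121) and the maintenance methyltransferase Dnmt1 (0.46, SE 0.13, edgeR adjusted p = 0.0142) rose. Gadd45b was uneven between the Des-/- non-swim libraries (mean 61.9 CPM, SD 57.7). Idh2 (-1.37, SE 0.33, edgeR adjusted p = 0.0075), which encodes a mitochondrial source of the TET cofactor 2-oxoglutarate, and Mbd2 (-0.27, SE 0.09, edgeR adjusted p = 0.0279), a reader of methylated DNA, fell.

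No gene of the methylation list was called for the average swimming effect, for which 3 were higher and 8 lower at an unadjusted edgeR p under 0.05. Over all 13158 genes tested, 2580 were under this threshold in either direction. The interaction was called for none and had a median of -0.13 against 0.03 over all genes. At an unadjusted edgeR p under 0.05 it was positive for 1 and negative for 2, against 10.1% and 6.20% of all genes. The smallest p-values were those of Uhrf1 (-2.66, SE 0.92, edgeR adjusted p = 0.220), which guides Dnmt1 to replicating DNA, Dnmt1 (-0.66) and Idh2 (1.43). Uhrf1 was at 5.98, 11, 28.5 and 8.28 CPM in Des+/+ non-swim, Des+/+ swim, Des-/- non-swim and Des-/- swim cells. It was uneven between the libraries of both Des-/- groups (SD 15.5 CPM without and 7.1 CPM with swimming).

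Cobalamin uptake and use was represented by 26 other gene symbols, of which 25 were in the tables and 24 were tested. On average 12 were called lower in Des-/- cells, the direction of Cd320, and 2 higher, against 20.6% and 19.3% of all genes, with a median of -0.50 against 0.03. Methionine synthase Mtr fell by 1.74 (SE 0.14, edgeR adjusted p = 0.000129), from 216 and 123 CPM in Des+/+ cells without and with swimming to 50.5 and 47.4 CPM in Des-/- cells. Methylmalonyl-CoA mutase Mmut fell by 1.34 (SE 0.16, edgeR adjusted p = 0.000243) and the propionyl-CoA carboxylase subunit Pcca by 1.4 (SE 0.17, edgeR adjusted p = 0.000248). Abcd4 (0.66, SE 0.12, edgeR adjusted p = 0.00179), a transporter that acts in the release of cobalamin from lysosomes, and the endocytic receptor Lrp2 (3.44, SE 0.74, edgeR adjusted p = 0.00412) rose, the latter at 7.82 CPM or less in every group mean. The summed cardiomyocyte markers differed in the same direction between the genotypes, and their part in this list was not tested.

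For the average swimming effect no gene of the cobalamin list was called, with a median of -0.21 against -0.05 over all genes. At an unadjusted edgeR p under 0.05, 1 was higher and 8 were lower. Of all 13158 genes tested, 2580 were under this threshold in either direction. None was called for the interaction by edgeR or DESeq2. At an unadjusted edgeR p under 0.05 it was positive for 5 and negative for 1, against 10.1% and 6.20% of all genes. The median interaction was 0.43 against 0.03 over all genes. The smallest p-values were those of Mmaa (0.95, SE 0.30, edgeR adjusted p = 0.206), which guards the loading of the mutase with cobalamin, the second carboxylase subunit Pccb (0.74) and Mtr (0.72). Mmaa was at 44.1, 28.7, 23.5 and 29.6 CPM in Des+/+ non-swim, Des+/+ swim, Des-/- non-swim and Des-/- swim cells, the same order of swimming changes as Cd320. Tcn2, which encodes the carrier that Cd320 binds, was at 106, 118, 109 and 132 CPM, with an interaction of 0.12 (SE 0.18, edgeR adjusted p = 0.756). This gene was added to those named after its values were seen.

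**Figure D5:**
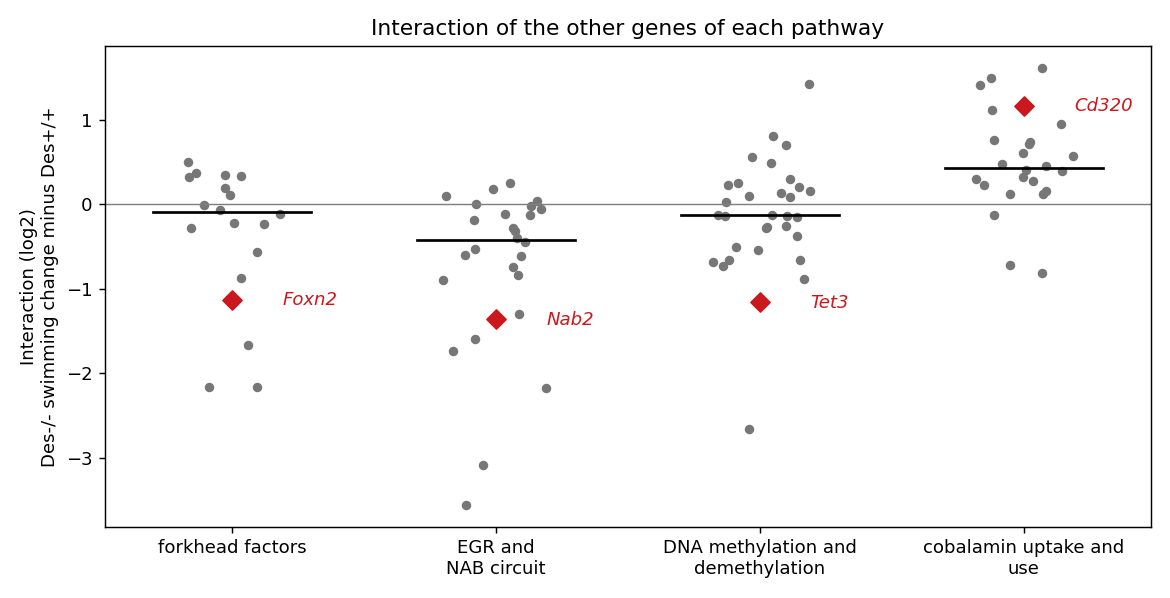
Interaction (log2, swimming change in Des-/- minus that in Des+/+) of the tested genes of each list. Grey points are the other genes, spread sideways only for legibility, the black line is their median, and the red diamond is Foxn2, Nab2, Tet3 or Cd320. The medians lie at -0.09, -0.42, -0.13 and 0.43 in the order of the axis.

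The neighbours of the 4 genes on the chromosome had mixed patterns. On either side of Foxn2, Fbxo11 (375419 bp away) and Ppp1r21 (39584 bp away) had interactions of -0.04 (SE 0.17) and -0.02 (SE 0.23), beside the -1.13 of Foxn2. Ppp1r21 rose on average with genotype (0.43, SE 0.11, edgeR adjusted p = 0.0123). Nab2 overlaps 2 protein-coding genes on the opposite strand, Stat6 by 40 bp of exon and Nemp1 by 151 bp, and an antisense gene, Gm16229, by 1050 bp, which was not in the tables. Stat6 was at 129, 137, 129 and 131 CPM in Des+/+ non-swim, Des+/+ swim, Des-/- non-swim and Des-/- swim cells, with an interaction of -0.08 (SE 0.23). Nemp1, which encodes an inner nuclear membrane protein, was at 9.91, 12.4, 16.3 and 9.10 CPM, with an interaction of -1.17 (SE 0.31, edgeR adjusted p = 0.199). The reads were counted on the reverse strand. Of 93 pairs of genes on opposite strands with over 3000 reads expected without strand, 18 held under 1% of that number. The expected number assumes even coverage of exons, so it cannot settle how well the counts separate the strands. Whether reads of Gm16229 entered the count of Nab2 was not tested.

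Bola3, which encodes a protein of mitochondrial iron-sulphur cluster assembly and lies 2236 bp from Tet3 on the opposite strand, was at 88.4, 68.5, 36.9 and 51.5 CPM in Des+/+ non-swim, Des+/+ swim, Des-/- non-swim and Des-/- swim cells. It fell on average with genotype (-0.84, SE 0.12, edgeR adjusted p = 0.000617), and its interaction of 0.85 (SE 0.25, edgeR adjusted p = 0.199) had the sign opposite to that of Tet3. Dguok, on the other side of Tet3, had an interaction of 0.42 (SE 0.23). Ndufa7, a subunit of respiratory complex I that lies 4773 bp from Cd320, was at 143, 116, 66.6 and 106 CPM, fell on average with genotype (-0.61, SE 0.15, edgeR adjusted p = 0.00963) and had an interaction of 0.98 (SE 0.31, edgeR adjusted p = 0.206), both with the sign of Cd320. Kifc1, a motor of the mitotic spindle on the other side of Cd320, was at 2.09, 2.49, 12.7 and 2.51 CPM, with an SD of 9.54 CPM in Des-/- non-swim cells. It rose on average with genotype (1.30, SE 0.43, edgeR adjusted p = 0.032) and had an interaction of -2.60 (SE 0.86), both with the sign opposite to that of Cd320. Lrp1, next to Nab2, rose on average with genotype (1.18, SE 0.23, edgeR adjusted p = 0.00228), had an interaction of -1.15 (SE 0.45) and was at 334, 353, 1129 and 537 CPM, and its level in Des-/- non-swim cells was uneven between libraries (SD 615 CPM). Myo1a, on the other side of Nab2, had too few counts to be tested.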

How the data were processed

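Poly-A RNA of 12 libraries of mouse cardiomyocytes (3 for each of 4 groups, grouped by the labels) was measured. The authors aligned the reads to GRCm38 with HISAT2 2.2.1 and counted reads per gene with HTSeq on the reverse strand. The deposited values are raw counts with no normalisation. The labels name an unstranded kit and the methods a directional one. A check on pairs of genes on opposite strands did not settle how well the counts separate the strands. Rows that name no gene held 34.0 to 64.5% (no gene) and 0.143 to 0.382% (ambiguous) of unique reads and were left out of library totals. Of 21493 genes, 21488 matched GENCODE M21. None of the 12 pairs of libraries within a group agreed within sampling noise (chi-square per degree of freedom 9.11 to 117).

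edgeR 4.0.16 under R 4.3.3 was run on the counts (filterByExpr, TMM, 4 group means over all 12 libraries, 8 residual degrees of freedom, quasi-likelihood test) and, as an alternative, DESeq2 1.42.0. Benjamini-Hochberg adjustment was made over the 13158 genes tested, with calls at 0.05. Over all genes the common coefficient of biological variation was 0.271. The SE is the absolute log2 value divided by the root of F. Levels are CPM, and correlations use log2 CPM with a prior count of 2. P-values measure the spread between libraries, which are pools of mice.

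The 4 genes, the pathway and marker lists and the tests were chosen with earlier results of these data known. Besides the 4 genes, those named are interaction ranks 1 to 8, paralogs, neighbours, the 3 most correlated genes, and from each pathway list at most the 3 called genes of smallest p in each direction and the 3 of smallest interaction p. Some genes that this rule names are not reported here. Motifs were searched on both strands of RefSeq promoters (GRCm38.p6). Alternatives were other scalings and filters, DESeq2, a replicate block, thinning to 4320819 reads and leaving out each library. Leaving out replicate 3 of both Des-/- groups was added after the data were seen.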

Additional observations from a re-analysis of the deposited data

Results flagged for a closer look

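For Foxn2, Tet3 and Cd320 the 3 swim and 3 non-swim libraries did not overlap in either genotype. Their order in Des-/- cells was the opposite of that in Des+/+ cells. The difference in swimming change between the genotypes was -1.13, -1.16 and 1.17 on the log2 scale. The difference was not tested, because it chose the genes, and the separation follows from that choice. The same separation in opposite directions was seen in 267 of the 13158 genes tested (2.03%). The Des-/- swim and non-swim libraries of Nab2 overlapped, so it did not meet this rule.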

How the results depend on the processing

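Of 160 average effects of the 4 genes over 20 alternative fits, 149 kept their direction and side of the threshold. The exceptions concerned the average swimming effect. That of Nab2 (0.54) was no longer called in 10 of the 12 fits that left out a library (0.48 to 0.60), and that of Tet3 (-0.05) came to 0.00 when Des-/- swim replicate 1 was left out (-0.10 to 0.00 over the 12 fits). Fewer libraries are the construction of these fits, and the cause was not tested further. The number of genes called for the average swimming effect, 109, was 839 with DESeq2 (529 higher and 310 lower) and 6 to 284 with a library left out, lowest without Des+/+ swim replicate 3 and highest without Des-/- swim replicate 3. With replicate 3 of both Des-/- groups left out, it was 417, and the interaction of Foxn2 was -1.26 against -1.13. Interactions were called for 328 genes with DESeq2 (211 positive and 117 negative) and for 0 with edgeR, whichever library was left out. The cause of these differences between tools was not tested. With the replicate number as a block, 78 genes were called for the average swimming effect and Nab2 kept its call (0.55, edgeR adjusted p = 0.0498). The numbers were not taken to pair the samples, since 6 of 18 correlations between same-numbered libraries of different groups were over 0.1 (-0.41 to 0.602). Between the 2 Des-/- groups, however, all 3 were over 0.1 (0.365, 0.316 and 0.602), and replicate 3 was highest in fibroblast and macrophage markers in both. Between the 2 Des+/+ groups the correlations were -0.41, -0.257 and 0.006. With the block the interactions were -1.13 for Foxn2, -1.34 for Nab2, -1.17 for Tet3 and 1.17 for Cd320. The block fits the same shift per replicate number in every group, so it cannot address a likeness of replicates in the Des-/- groups only. Depth was lowest in the Des-/- swim group, and thinning all libraries to 4320819 reads gave interactions of -1.12 for Foxn2, -1.37 for Nab2, -1.11 for Tet3 and 1.12 for Cd320.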
